A study of Homo sapiens with 6 samples.

Results

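The genes described are 56 protein-coding genes of glycerophospholipid metabolism, a pathway the study followed up, and all 56 of the listed symbols were found among the 20033 protein-coding genes of the annotation (GENCODE 44, hg38). For each gene the ChIP-seq peaks that overlapped the gene body plus 3 kb on either side were collected from 3 lists. The cells were labelled HepG2, a line from a human liver tumour, grown without addition (control) or with 10 mM sodium benzoate (SB) for 24 h. Chromatin cut with micrococcal nuclease was precipitated with antibodies against acetylated lysine (Kac) or benzoylated lysine (Kbz), neither of which tells the histone or the residue. The lists were control Kac, SB Kac and SB Kbz, with 1 library each. For control Kbz the labels state that no peaks were called, and the input libraries were not analysed here.

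Glycerophospholipids are the main lipids of cell membranes. They are built on glycerol 3-phosphate, which is acylated to phosphatidic acid and then led through diacylglycerol or CDP-diacylglycerol to the head groups choline, ethanolamine, serine, inositol and glycerol. Acyltransferases and phospholipases afterwards exchange or remove the fatty acids, and the liver uses the products for membranes, bile and lipoproteins. Benzoate is joined to coenzyme A in cells, and benzoyl-CoA is the donor of the benzoyl group.

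Because a group was 1 library, the lists have no replicate error to be weighed against and no test was made. Intervals are Wilson 95% intervals for counting error. There were 70326 peaks of control Kac, 63282 of SB Kac and 24308 of SB Kbz, and their sequencing depth is unknown. A check of the cell label gave a mixed result. Of 11 genes of liver products and liver transcription factors, 6 had a control Kac peak within 3 kb of a transcription start site (TSS), 6 an SB Kac peak and 3 an SB Kbz peak. ALB, APOB, FGB, SERPINA1 and FOXA2 had none in any list, while 3 of 5 genes of other lineages (MYOD1, NEUROD1 and GFAP) had a peak in each list. Of all protein-coding genes 76.5%, 75.7% and 64.6% had such a peak in the 3 lists. Peaks at 3 of 5 genes of other lineages are thus not above the share of all genes. The missing peaks at ALB, APOB, FGB, SERPINA1 and FOXA2 go in part against the label, and the part of this in the results below was not tested.

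Nearly all of the 56 genes carried acetylation at a promoter in both conditions, and most carried benzoylation after SB. A control Kac peak lay in the window of 56 of the 56 genes, against 81.7% of all protein-coding genes. An SB Kac peak lay in 55 (98.2%, interval 90.6 to 99.7%), against 80.4%, and an SB Kbz peak in 52 (92.9%, interval 83.0 to 97.2%), against 70.8%. Within 3 kb of an annotated TSS the counts were 56, 55 and 51, where all protein-coding genes gave 76.5%, 75.7% and 64.6%. The windows of these genes were longer, with a median of 53.7 kb against 33.5 kb, and they had a median of 9 annotated TSSs against 5. Longer windows with more starts have more room for an overlap, and the part of this in the shares was not tested. The members had been listed with earlier results of these data known, so their high share is a description. Another 39 genes of the same pathway, among them secreted phospholipases and brain enzymes, came close to the share of all genes, with 30, 32 and 24 genes within 3 kb of a TSS.

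**Figure D1:**
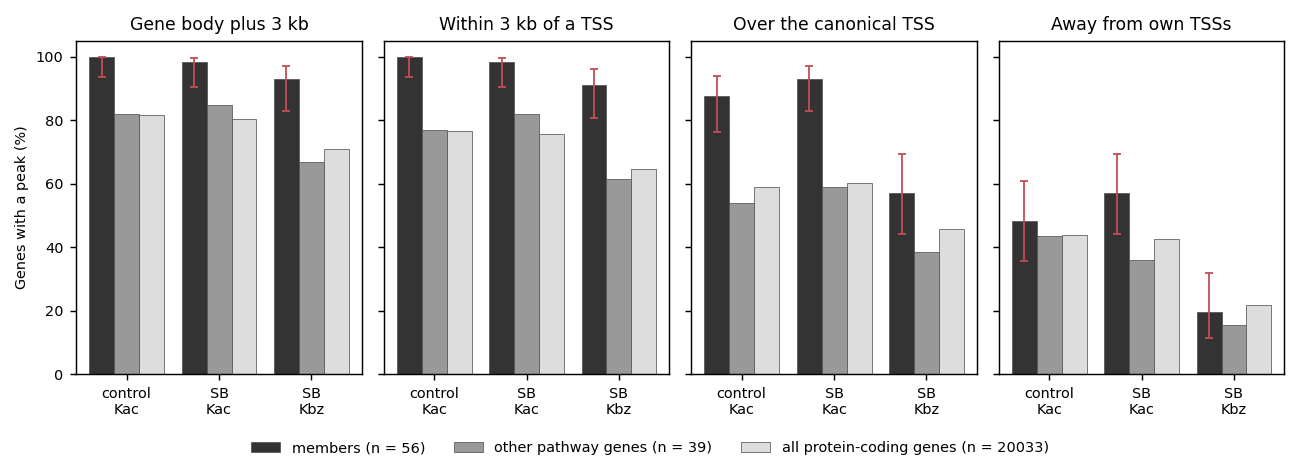
Percent of genes with a peak of each list in 4 kinds of window, for the 56 genes, 39 other genes of the pathway and 20033 protein-coding genes. Error bars are Wilson 95% intervals of the 56 genes, for counting error only. The dark bars are above the light ones for peaks at the TSS, and for Kbz away from the TSSs the dark bar (19.6%) is below the light one (21.8%).

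The lists differed in how many genes had the canonical TSS, which is 1 start per gene, under a peak. The canonical TSS was under a control Kac peak in 49 genes (59.1% of all protein-coding genes) and under an SB Kac peak in 52 (60.4%). It was under an SB Kbz peak in 32 (57.1%, interval 44.1 to 69.2%, against 45.8%). With the 15000 peaks of lowest p in each list, control Kac covered it in 27 genes, SB Kac in 39 and Kbz in 28. All protein-coding genes then gave 35.0%, 45.2% and 39.4%. The members' strongest peaks near the canonical TSS were shorter for Kbz (median 1470 bp) than for SB Kac (2822 bp). The part of peak number and length in these counts was not tested. In 14 genes the nearest Kbz peak was within 3 kb but wholly upstream, which was the case for 8.26% of all protein-coding genes. These were ACHE, CDS2, CHKA, CRLS1, DGKA, DGKD, DGKE, ETNK2, LPCAT1, LPCAT4, LPIN2, MBOAT2, MBOAT7 and PLA2G12A. In ACHE, DGKA and MBOAT7 this peak covered another annotated start, the outermost of the gene. In DGKA, DGKE and MBOAT7 it was also within 3 kb of the TSS of another gene (PYM1, C17orf67 and TSEN34). In 5 genes the nearest Kbz peak was wholly downstream (AGPAT3, DGKQ, DGKZ, LPIN3 and PCYT2), against 6.25%. Kbz covered 40 of the 56 genes at 500 bp before the TSS, 32 at the TSS and 33 at 500 bp after it. The same positions gave 49, 52 and 51 genes for SB Kac, which had no dip at the TSS. Over all protein-coding genes Kbz covered 44.1%, 45.8% and 42.7% at these positions, and at 250 bp before and after the TSS 46.6% and 46.7%, so a small dip at the TSS was present there too.

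**Figure D2:**
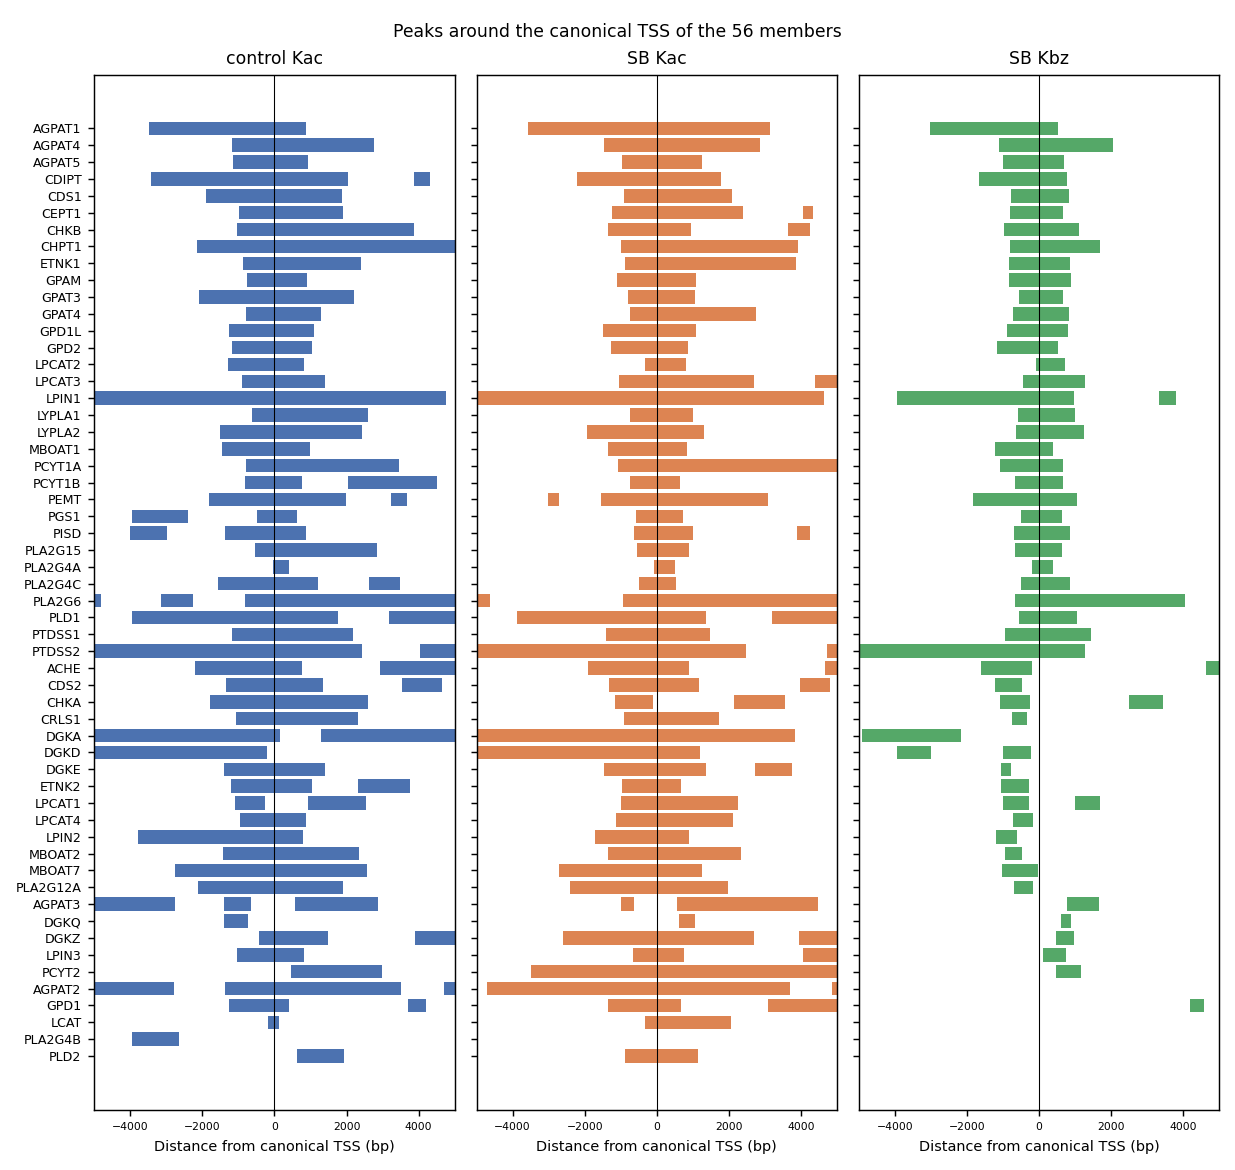
Peaks overlapping the window of each of the 56 genes, drawn from 5000 bp upstream to 5000 bp downstream of the canonical TSS (line at 0), with 1 row per gene and 1 panel per list. Rows are ordered by the place of the nearest Kbz peak: over the TSS (32 genes), upstream (14), downstream (5), and the 5 genes with none within 3 kb.

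The strength of a peak is given as the percentile of its fold (read density over background, as the authors' peak caller gave it) within its own list. The peak with the highest fold within 3 kb of the canonical TSS was used for each gene. Over the members its median was 81.8 for control Kac and 84.6 for SB Kac, and 60.8 for SB Kbz. All protein-coding genes with such a peak had 81.8, 85.3 and 67.8, so the Kac promoters of the pathway had ordinary strength and the Kbz promoters were lower by median. From control Kac to SB Kac the percentile was higher in 35 of the 55 genes with both peaks and lower in 20. All protein-coding genes gave 62.2% higher. When the strongest peak near any TSS of the gene was taken instead, 34 were higher.

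**Figure D3:**
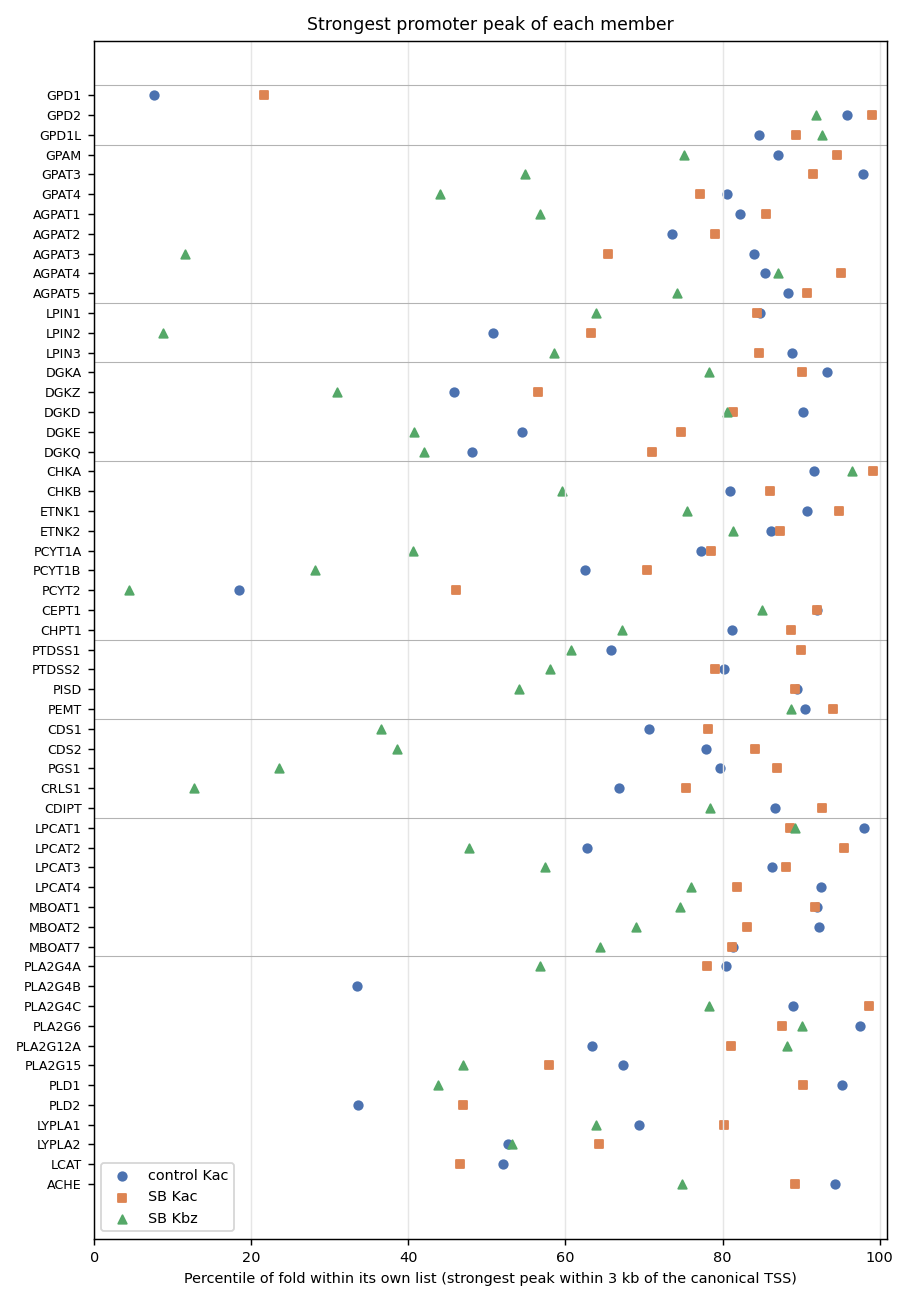
Percentile of fold of the strongest peak within 3 kb of the canonical TSS, for each of the 56 genes in the 3 lists, grouped by role between the lines. Most circles and squares lie to the right of 60, and the triangles for Kbz spread from 4.49 (PCYT2) to 96.5 (CHKA).

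PLA2G4C, PLA2G15 and ACHE were among the genes that the study selected for follow-up. PLA2G4C encodes a cytosolic phospholipase A. Its TSS was under a control Kac peak of 2771 bp (percentile 89.0), an SB Kac peak of 1021 bp (98.6) and a Kbz peak of 1355 bp (78.2). The SB Kac peak was the third highest among the members and shorter than its control counterpart. PLA2G15, a lysosomal phospholipase, had a control Kac peak of 3382 bp (67.3), an SB Kac peak of 1444 bp (57.8) and a Kbz peak of 1311 bp (46.9) over its TSS. A stronger Kbz peak of the PLA2G15 window (88.0) lay 18298 bp downstream and within 3 kb of the TSS of SLC7A6. ACHE, acetylcholinesterase, had Kac over its TSS in both lists (94.4 in control, 89.2 after SB). Its Kbz peak of 1393 bp (74.8) ended 210 bp upstream of the canonical TSS and covered the outermost annotated start of ACHE. A second ACHE Kbz peak of 3777 bp (89.9) lay near the TSS of UFSP1.

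The sequences before 5 of the starts are shown as examples of promoters with Kbz over, beside or absent from the canonical TSS. They are from RefSeq promoters (GRCh38.p14) and end at or before the start, limited to the longest stretch with no annotated exon. Capitals mark CpG dinucleotides, and each is written 5′ to 3′ on the strand of the gene. PLA2G15 (chr16:68245123-68245303, plus strand) was wholly under Kbz. ACHE (chr7:100895921-100896058, minus strand) was under Kac in both lists and lay between the Kbz peak and the canonical TSS. AGPAT2 (chr9:136687458-136687707, minus strand) and PLD2 (chr17:4807014-4807151, plus strand) had no Kbz. PLA2G4A (chr1:186828699-186828948, plus strand) had 187 of its 250 bases under Kbz.
PLA2G15: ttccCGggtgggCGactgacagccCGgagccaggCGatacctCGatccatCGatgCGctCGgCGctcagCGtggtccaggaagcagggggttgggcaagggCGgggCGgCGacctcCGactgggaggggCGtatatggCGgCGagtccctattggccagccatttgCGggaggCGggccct
ACHE: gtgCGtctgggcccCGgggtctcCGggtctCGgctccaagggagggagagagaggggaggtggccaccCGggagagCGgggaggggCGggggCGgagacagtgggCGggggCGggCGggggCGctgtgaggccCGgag
AGPAT2: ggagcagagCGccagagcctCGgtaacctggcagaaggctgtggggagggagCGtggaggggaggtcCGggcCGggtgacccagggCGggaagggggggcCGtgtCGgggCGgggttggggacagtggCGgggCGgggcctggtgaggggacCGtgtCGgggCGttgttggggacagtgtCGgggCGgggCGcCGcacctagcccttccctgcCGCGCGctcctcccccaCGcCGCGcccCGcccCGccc
PLD2: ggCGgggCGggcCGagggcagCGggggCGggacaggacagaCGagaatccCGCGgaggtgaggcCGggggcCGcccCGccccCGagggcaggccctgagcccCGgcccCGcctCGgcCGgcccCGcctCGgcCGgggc
PLA2G4A: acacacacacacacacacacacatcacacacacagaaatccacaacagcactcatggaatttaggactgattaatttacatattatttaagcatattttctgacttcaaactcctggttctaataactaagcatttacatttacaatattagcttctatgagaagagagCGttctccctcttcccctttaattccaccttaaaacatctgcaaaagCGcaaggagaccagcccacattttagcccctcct

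CpG dinucleotides numbered 19 in PLA2G15, 13 in ACHE, 26 in AGPAT2, 19 in PLD2 and 2 in PLA2G4A. High CpG content was thus found with and without Kbz, and PLA2G4A had Kbz at a promoter poor in CpG. Of the 56 genes 44 had a RefSeq window, and in 42 it started within 500 bp of the canonical TSS. In these windows of 300 bases the CpG ratio (observed over expected from the C and G content) had a median of 0.81 where Kbz covered the TSS (n = 25). Where it lay upstream the median was 0.88 (n = 12). All protein-coding genes gave 0.87, 0.85 and, with no Kbz within 3 kb, 0.39. The 3 members without Kbz there had 0.77 (AGPAT2), 0.81 (PLD2) and 0.12 (PLA2G4B).

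**Figure D4:**
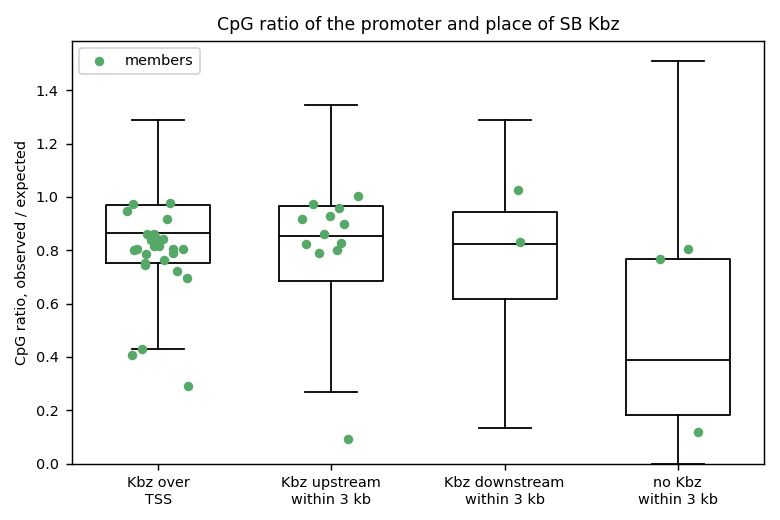
CpG ratio (observed over expected) of the 300-base promoter window by the place of the nearest SB Kbz peak. Boxes show the quartiles of all protein-coding genes with whiskers to the last value within 1.5 box lengths, and points are the 42 members. Most members lie above 0.69 in every class, while the box without Kbz has a median of 0.39.

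Of 7 short motifs searched on both strands, GGGCGG was in 35 of 42 member windows (83.3%), in 62.6% of the windows near the canonical TSS of protein-coding genes and in 44.9% of all 34943 RefSeq promoter windows. CCAAT was in 14 members (33.3%), against 36.9% of the protein-coding windows and 34.6% of all. CCGGAAG was in 4 (9.52%), against 15.03% and 10.2%. CACGTG was in 3 (7.14%), against 8.94% and 7.23%. TATAAA was in 1 (2.38%), against 9.40% and 11.6%. GCGCATGC (4.47% and 3.02%) and TGACGTCA (2.84% and 1.84%) were in 0 of the 42.

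Among the genes of glycerol 3-phosphate supply, GPD2, the mitochondrial dehydrogenase, had some of the strongest promoter peaks, with percentiles of 95.9 (control Kac), 99.1 (SB Kac) and 91.9 (Kbz). GPD1L, a relative of GPD1, had 84.6, 89.3 and 92.7. GPD1, the cytosolic dehydrogenase, had the weakest promoter peaks of the group (7.63 in control Kac and 21.6 in SB Kac at the canonical TSS) and no Kbz within 3 kb of a TSS. Its strongest peaks near any of its TSSs stood at 52.8 and 83.7. Its nearest Kbz peak began 4172 bp after the TSS (15.7), and a stronger one (68.8) lay near the TSS of COX14.

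The acyltransferases of the first steps included one gene without any Kbz. GPAM, GPAT3 and GPAT4 acylate glycerol 3-phosphate, and their canonical TSSs were under a peak of all 3 lists, with Kbz percentiles of 75.1, 54.9 and 44.03. GPAT3 had the second highest control Kac percentile of the members (97.9) and 91.6 after SB. AGPAT1, AGPAT4 and AGPAT5, which add the next acyl chain, had Kbz over the TSS at 56.7, 87.1 and 74.2. The AGPAT1 peak also lay within 3 kb of the TSS of RNF5. AGPAT2 had 6 control Kac peaks and 3 SB Kac peaks, one of them 8404 bp long over the TSS (79.1), but 0 Kbz peaks. AGPAT3 held the most peaks, with 17 peaks of control Kac, 19 of SB Kac and 7 of Kbz, and its bases under Kac were 26422 in control and 40768 after SB. Its window was 128370 bp long with 18 annotated TSSs, against member medians of 53732.5 bp and 9. The weakest of its control Kac peaks stood at percentile 0.51. Its canonical TSS was covered in none of the lists. Near that TSS its percentile was 84.0 in control Kac and 65.4 in SB Kac, a difference of -18.5 percentile points and the lowest of the members, but with any of its TSSs the difference was -1.32.

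Of the phosphatidic acid phosphatases, LPIN1 had the longest Kac peak of all members in both lists (10400 bp in control, 12710 bp after SB). Its Kbz peak at the same place was 4930 bp long. LPIN1 had 8 control Kac and 13 SB Kac peaks, with 3 Kbz peaks away from its TSSs at percentiles 16.4, 19.9 and 33.7. LPIN2 and LPIN3 had Kbz beside the TSS, 627 bp upstream (8.75) and 94 bp downstream (58.5). In none of the 5 diacylglycerol kinase genes did Kbz cover the canonical TSS, against 32 of the 56 members and 45.8% of all protein-coding genes. All 5 had Kbz within 3 kb of a TSS, against 51 of the 56 and 64.6%. In DGKA and DGKQ a Kbz peak covered another annotated start, the outermost of the gene. The Kbz nearest the canonical TSS lay 2174 bp upstream in DGKA (78.2), 214 bp in DGKD (80.5) and 777 bp in DGKE (40.8). It lay 454 bp downstream in DGKZ (30.9) and 602 bp in DGKQ (42.1). The DGKA peak was also within 3 kb of the TSS of PYM1, and the DGKE peak within 3 kb of that of C17orf67. SB Kac covered the canonical TSS in 4 of the 5 kinase genes, against 52 of the 56 members and 60.4% of all protein-coding genes. DGKQ had 48.1 in control Kac and 71.0 in SB Kac, but these values come from different peaks, 740 bp upstream and 604 bp downstream.

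In the CDP-choline and CDP-ethanolamine routes 9 of 9 genes had Kbz within 3 kb of a TSS, close to the 51 of 56 over the members, against 64.6% of all protein-coding genes. CHKA, a choline kinase, had the highest percentile of the 56 in SB Kac (99.2) and in Kbz (96.5), in peaks of 1054 bp and 814 bp that ended 114 bp and 264 bp before the canonical TSS. Its control Kac peak of 4371 bp (91.7) covered the TSS. CHKB had 81.0, 86.0 and 59.5 in the 3 lists, and the ethanolamine kinases ETNK1 and ETNK2 had Kbz at 75.5 and 81.3. The enzymes that activate these bases with CTP had weaker Kbz, with 40.5 for PCYT1A, 28.1 for PCYT1B and 4.49 for PCYT2, the lowest of the members. PCYT2 was also low in control Kac (18.4) and had 46.0 after SB, in a peak of 9457 bp that covered the TSS. With any of its TSSs the direction turned, with 47.4 in control Kac and 46.0 after SB. A Kbz peak away from its TSSs (15.9) lay near the TSS of NPB. The phosphotransferases CEPT1 and CHPT1, which finish the routes, had Kbz at 85.1 and 67.2. The CEPT1 peak also lay within 3 kb of the TSS of DRAM2.

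The group of phosphatidylserine and phosphatidylethanolamine conversion held PTDSS1, PTDSS2, PISD and PEMT. Kbz lay over the canonical TSS in 4 of 4, against 32 of the 56 members and 45.8% of all protein-coding genes. PTDSS2, a phosphatidylserine synthase, had the longest Kbz peak of the members (7967 bp, percentile 58.0) and a control Kac peak of 10123 bp. Both peaks also lay within 3 kb of the TSS of ANO9, and 6294 of the Kbz bases were in the PTDSS2 window. PTDSS1 had 65.8 in control Kac and 90.0 after SB, the third largest difference upwards, and a second Kbz peak (35.3) 76875 bp downstream. The peaks over the PTDSS1 TSS in all lists also lay within 3 kb of the TSS of MTERF3. PISD, the mitochondrial decarboxylase, had Kbz at 54.1. PEMT, which methylates phosphatidylethanolamine, had 14 control Kac and 15 SB Kac peaks but 3 Kbz peaks, at 88.7 over the TSS and at 29.3 and 9.70 in introns. Along the CDP-diacylglycerol route the median Kbz percentile was 36.5. CDS1 and CDS2, the CDP-diacylglycerol synthases, had 36.5 and 38.5, PGS1 23.6 and CRLS1, cardiolipin synthase, 12.7. CDIPT, phosphatidylinositol synthase, stood apart with 78.3.

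Among the lysophospholipid acyltransferases, LPCAT1 had the highest control Kac percentile of the members (98.0), with 88.6 after SB and 89.2 in Kbz. LPCAT2 had the largest difference upwards, 62.8 in control Kac and 95.4 after SB over the same TSS, with Kbz at 47.7. LPCAT4 had 92.6 and 81.8. LPCAT3, MBOAT1, MBOAT2 and MBOAT7 had Kbz at 57.3, 74.6, 69.0 and 64.4. MBOAT1 had 6 control Kac peaks and 2 SB Kac peaks.

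The remaining hydrolases held the one gene with Kac at a promoter in 1 condition in the full lists. PLA2G4B had a control Kac peak of 1311 bp (33.5) that ended 2648 bp upstream of the TSS, and 0 SB Kac and 0 Kbz peaks. Loss of the call occurred in 1 of 56 genes against 3.01%, and gain in 0 of 56, with an upper bound of 6.42%, against 2.13%. The PLA2G4B peak had a −log10 q of 2.06. At −log10 q of at least 5, loss was called in 1 gene against 3.72%, and this gene was PCYT1B. PLA2G4A, a cytosolic phospholipase A, had Kbz at 56.7 over its TSS and a higher one (68.7) of 318 bp in an intron 53660 bp downstream, where neither Kac list had a peak. PLA2G6 had control Kac at 97.6, SB Kac at 87.6 and Kbz at 90.1, in peaks of 7948, 10667 and 4722 bp. PLA2G12A had Kbz at 88.2, PLD1 at 43.7, LYPLA1 at 63.9 and LYPLA2 at 53.2. PLD2, a phospholipase D, had 1 peak in each Kac list (33.6 and 47.0), and LCAT, which esterifies cholesterol in plasma, had 52.1 and 46.6 at its TSS, both without Kbz. SB Kac without Kbz within 3 kb of a TSS was found in 4 genes (AGPAT2, GPD1, LCAT and PLD2), against 11.3%.

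Away from their own TSSs 27 genes had control Kac (43.8% of all protein-coding genes), 32 had SB Kac (42.5%) and 11 had Kbz (21.8%). The 18 Kbz peaks there were weaker than the 68 at TSSs, with a median percentile of 25.5 against 58.3. Of the 18, 13 were also away from the canonical TSSs of other protein-coding genes. When peaks within 3 kb of any TSS of any gene were left out, 8 genes kept a Kbz peak of this kind. The 11 Kbz genes were AGPAT3, DGKQ, GPD1, LPIN1, PCYT2, PEMT, PLA2G15, PLA2G4A, PLA2G6, PLD1 and PTDSS1. In DGKQ and PLD1 the intronic Kbz peaks (20.6 and 40.3) overlapped Kac of both lists, and the one of PLA2G6 (69.5) lay near the TSS of MAFF.

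**Figure D5:**
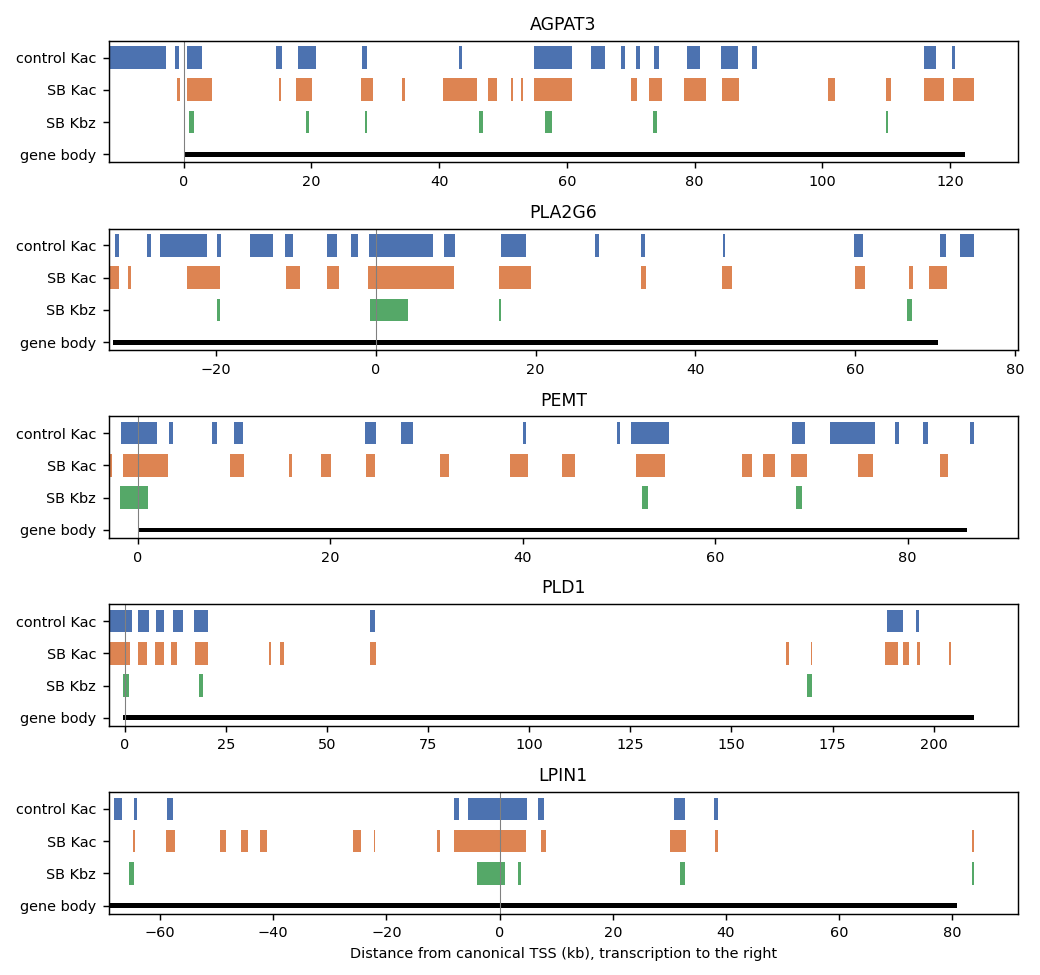
Peaks of the 3 lists along AGPAT3, PLA2G6, PEMT, PLD1 and LPIN1, by distance from the canonical TSS in kb, with the gene body as a black bar. Kac peaks are spread along the genes in both conditions (17 and 19 in AGPAT3), and Kbz peaks are fewer (7, 4, 3, 3 and 5 in order).

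Kbz lay almost wholly inside acetylated chromatin. At the members 83 of 86 Kbz peaks overlapped SB Kac (96.5%, interval 90.2 to 98.8%), against 93.7% of all Kbz peaks, and 95.5% of the Kbz bases were under SB Kac. The 3 others had no control Kac either and lay in PLA2G4A, GPAT3 and AGPAT3. In the other direction 80 of 202 SB Kac peaks overlapped Kbz (39.6%, against 33.8%). Of 192 control Kac peaks 148 overlapped SB Kac (77.1%, interval 70.6 to 82.5%, against 64.7%), and of 202 SB Kac peaks 142 overlapped control Kac (70.3%, interval 63.7 to 76.2%, against 72.5%). More bases were under control Kac than under SB Kac in 25 genes (44.6%, against 42.1%).

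The comparison of the Kac lists turned on the peak threshold. With the 15000 peaks of lowest p in each list, 31 genes had control Kac and 44 had SB Kac within 3 kb of a TSS, where all protein-coding genes gave 43.9% and 53.1%. SB Kac without control Kac was then found in 13 genes (12.5% of all), among them LPCAT2, PTDSS1, PTDSS2, AGPAT2, DGKQ and GPD1, instead of 0. Unequal depth and unequal acetylation cannot be told apart in these calls.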

How the data were processed

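According to the labels and the study's methods the authors cut chromatin with micrococcal nuclease, aligned reads to hg38 with Bowtie2 2.2.6, removed duplicates with SAMtools 0.1.19 and called broad peaks per library with MACS2 2.1.1. The stated FDR was 0.01, but the deposited −log10 q values begin at 1.31. The deposited fold, a ratio of read density over background, was ranked within its list only. The deposited −log10 p and q served as thresholds, and the deposited display score was not used. The deposited lists carry no read totals, so depth is unknown.

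Peak positions on the autosomes, X and Y were used, while 3 peaks of control Kac lay on other sequences and were not used. GENCODE 44 gave gene spans and TSSs. An overlap was at least 1 bp, a promoter 3 kb on either side of a TSS. The members and lists were chosen with earlier results of these data known. Named by rule were 3 members that were among the genes the study followed up, genes with a Kac call in 1 condition, genes with SB Kac but no Kbz, genes with no peak, genes with Kbz away from their TSSs, and the 3 members highest in percentile of fold, in peak length and in rise or fall of percentile. The rule did not say which promoter peak gives the percentile. A first run took the strongest peak near any TSS; after its values had been seen, the peak near the canonical TSS was taken, so that both conditions are read at one start. The change put PCYT2, PTDSS1 and AGPAT3 in place of DGKQ, GPD1 and PLA2G15 among the largest rises and falls, and all 6 are described.

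Python 3.11.15, numpy 2.4.6, pandas 2.3.3, scipy 1.17.1, matplotlib 3.10.9 and bedtools 2.31.1 were used. The overlap code was tested on simulated peaks and checked against bedtools.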

Additional observations from a re-analysis of the deposited data

How the results depend on the processing

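No paired analysis was possible because a group held a single library, and for the same reason no replicate could be left out. Of 96 recomputed values of 21 results, 70 stayed close to the reported one (a count within 1.5 times, a share within its interval) and 26 moved. The cause was not tested. Percentages after gene counts here are the shares of all protein-coding genes at the same setting. At −log10 q of at least 2, SB Kac without Kbz was found in 7 genes (10.7%), and 49.3% of SB Kac peaks overlapped Kbz. At −log10 q of at least 5, peaks away from TSSs were found in 8 genes (control Kac), 7 genes (SB Kac) and 4 genes (Kbz), SB Kac without control Kac in 10 genes and SB Kac without Kbz in 12, while 89.1% of control Kac peaks overlapped SB Kac and 60.9% of SB Kac peaks overlapped Kbz. With 15000 peaks per list, control Kac lay in 35 windows (50.5%), within 3 kb of a TSS in 31 genes (43.9%) and over the canonical TSS in 27 (35.0%). Peaks away from TSSs were likewise found in 8, 7 and 6 genes, near the 13.7%, 13.6% and 13.7% of all protein-coding genes. Control Kac without SB Kac was then found in 0 genes (3.41%) and SB Kac without control Kac in 13 (12.5%), and 16 genes had more control Kac bases (24.3%). Of control Kac peaks 90.9% overlapped SB Kac, 85.2% of Kbz peaks overlapped SB Kac and 79.3% of SB Kac peaks overlapped Kbz. By peak midpoint SB Kac without control Kac was found in 1 gene, and in a 1 kb promoter window control Kac without SB Kac in 0. With an overlap of 50% of the peak, the shares were 63.5% of control Kac in SB Kac, 58.4% of SB Kac in control Kac and 17.8% of SB Kac in Kbz. Taking the strongest peak near any TSS, the definition of the first run, left 34 genes with a higher Kac percentile after SB in place of 35, with the direction turned in LPIN1, DGKZ and PCYT2, and the members' medians were 83.5, 86.0 and 63.9 in the 3 lists. Intervals cover counting error only, and unknown depth limits every comparison of peak calls between lists.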
